A study of Mus musculus with 12 samples.

Results

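The superoxide dismutases and the antioxidant enzymes around them were described in mouse carotid arteries 1 day after a flow-disturbing operation, in animals with and without fibulin-5. The set holds 10 genes (Sod1, Sod2, Sod3, Cat, Gpx1, Gpx3, Prdx1, Hmox1, Nqo1 and Nox4), taken by name because extracellular Sod3 is known to bind fibulin-5. Every probe that the platform annotation assigns to these symbols was used, which gave 15 of the 45281 probes on the array and 10 of the 19057 genes with a probe. RNA was measured on 12 one-colour Illumina arrays. The groups were knockout ligated left carotid (KO LCA), wild type ligated left carotid (WT LCA), knockout untouched right carotid (KO RCA) and wild type untouched right carotid (WT RCA), with 3 arrays in each. KO stands for fibulin-5 (Fibulin V) knockout, which the design text also calls a knockdown, and all arrays carry the strain tag C57Bl/6J. In both genotypes only the left artery was partially ligated, so the right artery of an operated mouse is the untouched side and no unoperated mouse is among the groups. The labels give neither the deleted exons nor the age and sex of the mice, and leave unsaid whether each of a group's 3 arrays had its own mouse. P-values therefore measure the spread between these samples, which may be technical.

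Superoxide dismutases turn superoxide into hydrogen peroxide: Sod1 in the cytosol with copper and zinc, Sod2 in mitochondria with manganese, and Sod3 on the outside of cells and in the matrix, where it is a major superoxide dismutase of the arterial wall. Catalase (Cat), glutathione peroxidases (Gpx1 inside cells, Gpx3 secreted) and peroxiredoxins (Prdx1) then remove the peroxide. Haem oxygenase 1 (Hmox1) and the quinone reductase Nqo1 are induced through the transcription factor NRF2, and the NADPH oxidase Nox4 is a source of hydrogen peroxide in endothelial and smooth muscle cells. Superoxide that is not removed consumes nitric oxide, and the balance between these enzymes is therefore studied in arteries under disturbed flow. In RNA from a mix of cell types, fewer cells of a type and less RNA per cell cannot be told apart.

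Fibulin-5's own gene, Fbln5, had 1 probe, with intensities between 80.6 and 97.4. It was above the background guide on 0 of 12 arrays and so checks nothing about the knockout. The guide is the 95th percentile of 1503 probes for olfactory and vomeronasal receptors, genes mostly silent in arteries, and lay between 95.7 and 126 on the arrays. Signal was low throughout, with a median intensity of 93.6 and a highest of 10230 over the whole table. One array stood apart: WT LCA replicate 3 had a median correlation of 0.691 with the other arrays (the others reached 0.781 to 0.865) and 16.02% of genes above the guide (the others 28.5% to 48.4%). For the 10 genes, most differences that rest on it are given below with and without it. For the further genes taken as lists, differences are given only with it. Markers of the artery were present: 10 of 12 endothelial and 6 of 10 smooth muscle markers were above the guide on at least 6 arrays. Of the smooth muscle markers, Tagln passed the guide on 5 arrays, and Cnn1, Lmod1 and Des on 1 each.

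Of the 10 genes, 6 had a brightest probe above the guide on at least 11 arrays. The brightest probes of Sod1, Sod2, Sod3 and Cat lay above the guide on all 12 arrays, and those of Gpx1 and Prdx1 on 11. WT LCA replicate 3 was the exception for both of the 11-array genes. Sod3, though above the guide throughout, lay close to it on the KO LCA arrays, at 109 to 116 against guides of 95.7 to 102. Nox4 passed the guide on 6 arrays, Gpx3 on 4, and Hmox1 and Nqo1 on 3 each. Further probes exist for Sod1, Cat, Prdx1 and Nqo1, and of these 5 probes only the second Cat probe, above the guide on 10 arrays, was measured on most. A dim probe has a compressed range, so a small difference there says little about the amount of RNA. No level was compared between probes.

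**Figure D1:**
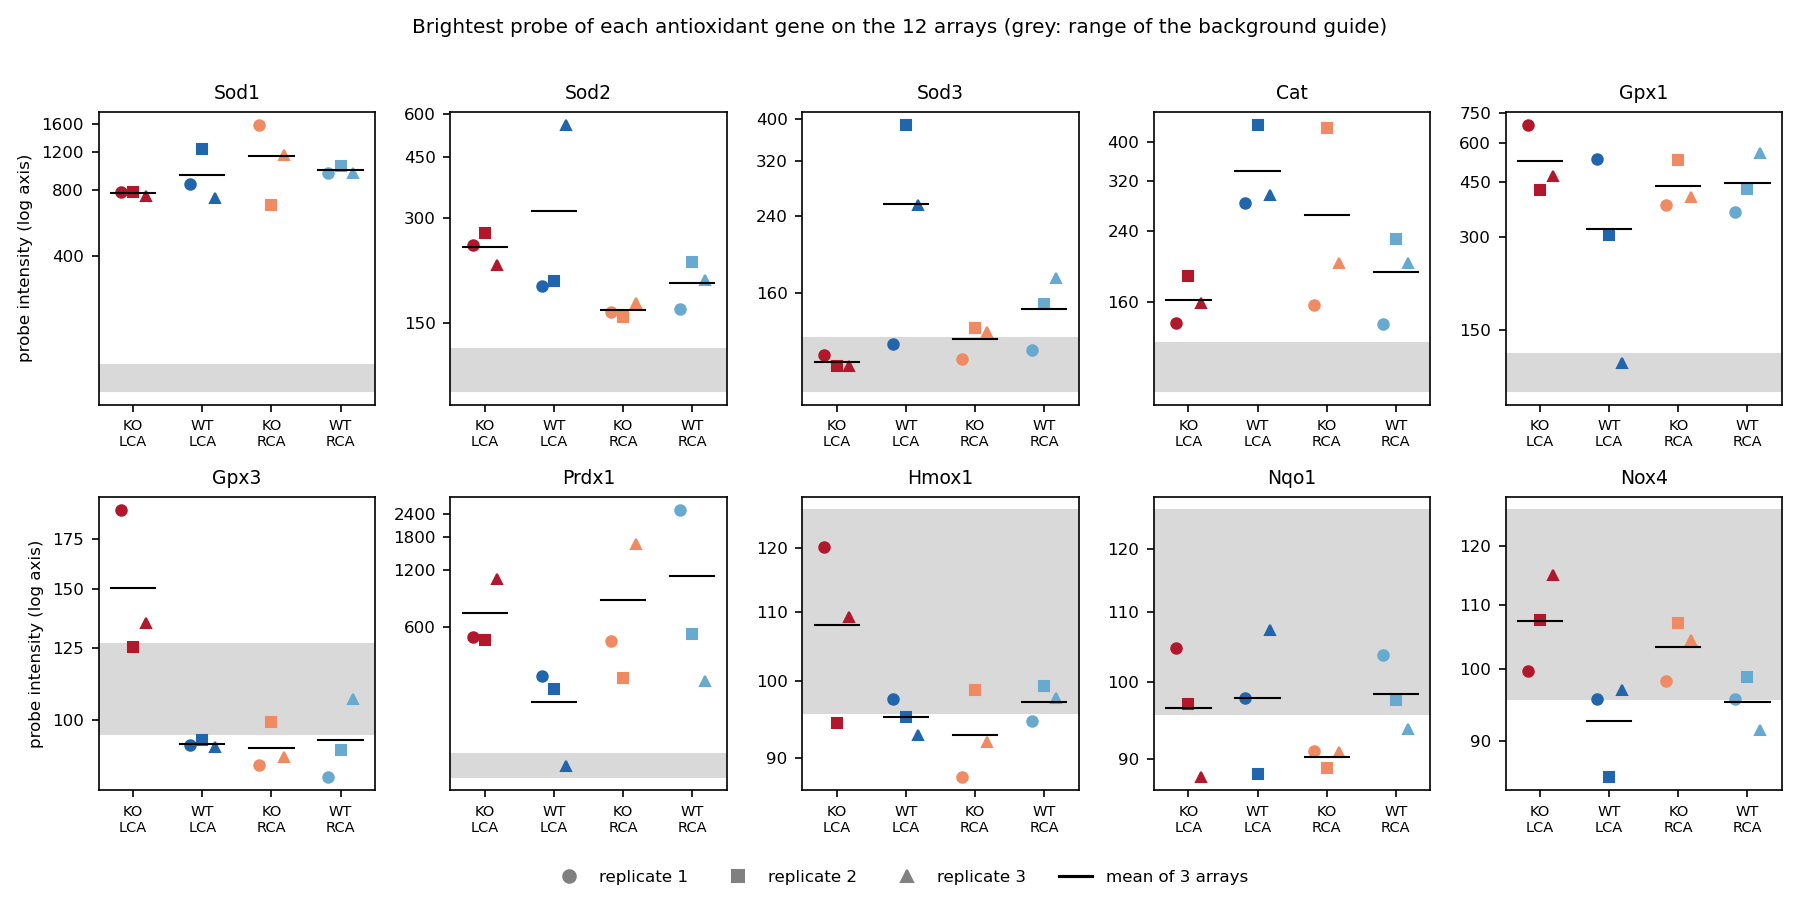
Probe intensity on a log axis for the brightest probe of each of the 10 genes, by group, with 1 point an array, a line at the mean of 3 arrays and grey for the range of the background guide (95.7 to 126). Sod3 and Cat lie lower on the 3 KO LCA arrays than on any WT LCA array, Gpx3 lies higher on them, and Hmox1, Nqo1 and Nox4 stay within or below the grey band on all arrays.

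Among the superoxide dismutases, Sod3 showed the widest gap between genotypes in the ligated artery. Its intensity was 116, 109 and 109.5 on the KO LCA arrays, 123, 387 and 255 on the WT LCA arrays, 113, 133 and 131 on the KO RCA arrays, and 119, 152 and 173 on the WT RCA arrays. The KO LCA arrays all lay below the WT LCA arrays, although the highest KO LCA value and the lowest WT LCA value were close. The 2 highest values of the gene were WT LCA replicates 2 and 3. Sod3 averaged 111 ± 3.81 in KO LCA and 255 ± 132 in WT LCA (SD, n = 3 each), a log2 difference of -1.04 ± 0.33 (SE, 95% interval -1.79 to -0.30). This did not pass the test, with an adjusted p of 0.696 in limma over all 45281 probes.

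The Sod3 difference depended on single WT LCA arrays. It was -0.67 without WT LCA replicate 2 and -1.50 without WT LCA replicate 1, where the adjusted p of limma came to 0.0576. In the untouched artery Sod3 averaged 126 ± 10.9 in KO RCA and 148 ± 27.4 in WT RCA, a log2 difference of -0.22 ± 0.33 (adjusted p = 1.00), and the arrays overlapped. Ligated minus untouched, the difference was -0.17 ± 0.33 in KO and 0.65 ± 0.33 in WT (adjusted p = 0.923 and 0.714). The WT value was 0.28 without WT LCA replicate 2 and 1.11 without WT LCA replicate 1. Ordered by mean, WT LCA came first, then WT RCA, KO RCA and KO LCA, and each pair of neighbours in that order overlapped. The interaction, which is the KO ligation difference minus the WT ligation difference, was -0.83 ± 0.47 (adjusted p = 0.924).

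Sod1, the cytosolic enzyme, had bright signal and no separation between groups. Its values were 783, 782 and 754 in KO LCA, 852, 1233 and 734 in WT LCA, 1592, 685 and 1161 in KO RCA, and 961, 1035 and 958 in WT RCA. The KO LCA and WT RCA arrays were tight and the other groups wide, and the groups overlapped in all 4 comparisons. KO LCA averaged 773 ± 16.3 against 939.7 ± 261 in WT LCA (log2 difference -0.25 ± 0.27, adjusted p = 0.873). KO RCA averaged 1146 ± 454 against 985 ± 43.5 in WT RCA (0.14 ± 0.27, adjusted p = 1.00). The first was -0.03 without WT LCA replicate 2, and the second ran from -0.14 without KO RCA replicate 1 to 0.47 without KO RCA replicate 2. Ligated minus untouched, Sod1 differed by -0.49 ± 0.27 in KO (adjusted p = 0.621) and by -0.10 ± 0.27 in WT (adjusted p = 0.929), and with single arrays left out these ran from -0.81 to -0.21 in KO and from -0.32 to 0.06 in WT. The 2 other Sod1 probes stayed between 79.7 and 101 on all arrays.

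Sod2, the mitochondrial enzyme, read 251, 273 and 219.9 in KO LCA, 192, 198 and 557 in WT LCA, 162, 156 and 172 in KO RCA, and 165, 225 and 199 in WT RCA. All 3 KO LCA arrays lay above all 3 KO RCA arrays. The mean was 248 ± 26.5 in KO LCA and 163 ± 8.04 in KO RCA, a log2 difference of 0.60 ± 0.34 that did not pass (adjusted p = 0.624 in limma). In WT, LCA averaged 316 ± 209 and RCA 196 ± 30.3, and this difference of 0.51 ± 0.34 was 0.00 without WT LCA replicate 3, the array with the value of 557. The same array set the sign between genotypes in the ligated artery, where KO minus WT was -0.16 ± 0.34 with it and 0.34 without it. In the untouched artery the genotype difference was -0.26 ± 0.34 (adjusted p = 1.00).

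Among the enzymes that remove peroxide, catalase had lower values in KO LCA than in WT LCA on both of its probes, though neither passed the test. The brighter probe read 142, 185 and 159 in KO LCA, 282, 442 and 296 in WT LCA, 157, 435 and 199.9 in KO RCA, and 141, 229 and 200.1 in WT RCA. WT LCA lay above KO LCA and above WT RCA on every array, while KO RCA replicate 2, at 435, lay within the WT LCA range. Cat averaged 162 ± 21.9 in KO LCA and 340.2 ± 88.8 in WT LCA, a log2 difference of -1.05 ± 0.35 (95% interval -1.83 to -0.27) that did not pass the test in limma (adjusted p = 0.717). Leaving out each of the 6 arrays of these groups in turn gave -1.17 to -0.84. The second Cat probe averaged 114 ± 1.43 in KO LCA and 137 ± 16.9 in WT LCA (-0.27 ± 0.12, adjusted p = 0.819), also without overlap. Over the 12 arrays the log2 values of the 2 Cat probes had a Pearson correlation of 0.38 and a Spearman correlation of 0.36.

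Ligated minus untouched, Cat differed by 0.84 ± 0.35 in WT (adjusted p = 0.714), with 0.28 ± 0.12 on the second probe, which was 0.13 without WT RCA replicate 3. In KO the difference was -0.57 ± 0.35 (adjusted p = 0.643), and it was -0.14 without KO RCA replicate 2. KO RCA averaged 264 ± 149 and WT RCA 190.2 ± 44.8, a difference of 0.36 ± 0.35 that was -0.07 without the same KO RCA array. The interaction was -1.41 ± 0.49 (95% interval -2.51 to -0.30) and -0.98 without KO RCA replicate 2. It did not pass (adjusted p = 0.924 in limma). In order of mean, WT LCA was followed by KO RCA, WT RCA and KO LCA, and among neighbours in that order each pair overlapped.

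Gpx3, the secreted glutathione peroxidase, was above background in the KO LCA group and on 1 other array. Its values were 191, 125 and 135 in KO LCA, 92.7, 94.0 and 92.2 in WT LCA, 87.0, 99.4 and 89.4 in KO RCA, and 84.0, 91.2 and 107 in WT RCA. The KO LCA arrays all exceeded every other array. The mean was 151 ± 35.5 in KO LCA and 93.0 ± 0.915 in WT LCA, a log2 difference of 0.67 ± 0.14 (95% interval 0.35 to 0.99). Because WT LCA was at background, only a bound can be set on the fold of the means. By means of log2 values, Gpx3 in KO LCA was 1.37-fold the guides of the WT LCA arrays. This bound leaves out the spread between arrays. The limma test gave an adjusted p of 0.308, the smallest of all 75 tests on the 15 probes, and it did not pass the threshold of 0.05. Leaving out single arrays gave 0.48 (without KO LCA replicate 1) to 0.79.

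The other Gpx3 comparisons use the same KO LCA arrays. Against KO RCA, with a mean of 91.9 ± 6.60, the KO LCA difference was 0.69 ± 0.14 (adjusted p = 0.479). In WT, LCA (mean 93.0 ± 0.915) and RCA (mean 93.9 ± 11.6) were both at background, so their difference carries no fold. The interaction was 0.70 ± 0.20 (95% interval 0.24 to 1.15, adjusted p = 0.924 in limma). KO LCA replicate 1, with the highest Gpx3 value of 191, was also the array with the highest summed adipocyte and the highest summed endothelial marker signal. The endothelial sum rests on Pecam1, at 3593 there. As a mean of log2 intensity, endothelial markers were at 7.88 on that array, below every RCA array. Both marker lists are described with the other cell types below, and the part of these cells in the Gpx3 value was not tested.

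Gpx1, the intracellular glutathione peroxidase, read 687, 423 and 471 in KO LCA, 533, 305 and 118 in WT LCA, 381, 529.9 and 404 in KO RCA, and 359.8, 428 and 556 in WT RCA. Every group overlapped every other. KO LCA averaged 527 ± 140.4 and WT LCA 319 ± 208, a log2 difference of 0.94 ± 0.45 (adjusted p = 0.819) that was 0.35 without WT LCA replicate 3, where Gpx1 was below the guide, and 1.44 without WT LCA replicate 1. The untouched arteries averaged 438 ± 80.3 in KO and 448 ± 99.6 in WT, a difference of -0.02 ± 0.45. Ligated minus untouched, Gpx1 differed by 0.25 ± 0.45 in KO and by -0.72 ± 0.45 in WT, the second of which was -0.13 without WT LCA replicate 3. The KO value was 0.04 without KO LCA replicate 1. The interaction was 0.97 ± 0.64 (adjusted p = 0.924), and 0.38 without WT LCA replicate 3.

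Prdx1 varied more between arrays than any other gene of the set, from 109 to 2498, or 22.8-fold. Its values were 530.2, 511 and 1083 in KO LCA, 329, 279.8 and 109 in WT LCA, 507, 319.8 and 1658 in KO RCA, and 2498, 552 and 309 in WT RCA. KO LCA lay above WT LCA on all arrays, and both RCA groups spread over most of that range. The means were 708 ± 325 in KO LCA and 239.6 ± 115 in WT LCA, a log2 difference of 1.62 ± 0.83 (adjusted p = 0.819), which was 1.13 without WT LCA replicate 3. In WT, LCA minus RCA was -1.80 ± 0.83 (adjusted p = 0.714), -0.93 without WT RCA replicate 1 and -1.31 without WT LCA replicate 3. KO LCA minus KO RCA was 0.04 ± 0.83 and KO RCA minus WT RCA -0.22 ± 0.83, with an interaction of 1.84 ± 1.17. Leaving out single arrays took the first of these from -0.46 to 0.72 and the second from -0.90 (without KO RCA replicate 3) to 0.64 (without WT RCA replicate 1). The interaction was 0.98 without WT RCA replicate 1. The second Prdx1 probe, between 85.7 and 116, was at background in WT LCA and above the guide on 1 KO LCA array, so its 0.01 ± 0.10 for KO LCA minus WT LCA bears neither way on the brighter probe.

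Promoter letters are shown for Cat and Gpx3, which are among the genes that the results above turn on. They are also shown for the members that hold, in the stretch searched, the core of the antioxidant response element, the site that NRF2 binds. Sequences come from RefSeq (GRCm38.p6), read on the gene's strand, and 8 of the 10 genes had an entry. Sod3 and Hmox1 had none. The stretches of Sod1, Cat and Gpx3 end at the base before the gene's start, and that of Prdx1 runs from 160 to 60 bases before it. The core was searched as TGACNNNGC on both strands in the 250 bases before each start, and 10.2% of 32851 promoters held it. Bases outside that window were not searched. Among the 8, Prdx1 and Sod1 did, and in Prdx1 it overlaps a match to the AP-1 motif TGACTCA, which 4.46% of promoters held. The CCAAT box was in 33.8% of promoters and in those of Cat, Gpx3, Sod1 and Sod2, with 4 matches in Cat. The GC box GGGCGG was in 32.7% of promoters and in 7 of the 8. A match describes letters only and shows no binding. In the lines below, capitals mark the response element core for Prdx1 (chr4:116685439-116685539, plus strand) and Sod1 (chr16:90220672-90220761, plus strand), and the CCAAT box on either strand for Cat (chr2:103485154-103485243, minus strand) and Gpx3 (chr11:54902764-54902853, plus strand).
Prdx1: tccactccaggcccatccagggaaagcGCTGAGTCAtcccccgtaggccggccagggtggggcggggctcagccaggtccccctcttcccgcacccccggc
Sod1: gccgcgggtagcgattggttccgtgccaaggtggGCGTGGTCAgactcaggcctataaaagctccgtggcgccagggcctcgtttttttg
Cat: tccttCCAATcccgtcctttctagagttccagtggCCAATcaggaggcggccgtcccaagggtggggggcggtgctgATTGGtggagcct
Gpx3: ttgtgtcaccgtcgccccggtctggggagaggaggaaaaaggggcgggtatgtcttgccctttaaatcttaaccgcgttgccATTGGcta

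Hmox1 and Nqo1, the NRF2-inducible enzymes of the set, were close to background. Hmox1, which degrades haem, read 120.2, 94.4 and 109 in KO LCA, 97.6, 95.2 and 92.8 in WT LCA, 87.7, 98.8 and 92.0 in KO RCA, and 94.6, 99.3 and 97.7 in WT RCA. Replicates 1 and 3 of KO LCA were the highest values, and replicate 2 lay among the other groups. KO LCA minus KO RCA was 0.21 ± 0.08 (adjusted p = 0.507), with KO RCA at background. By means of log2 values, KO LCA was 1.06-fold the guides of the KO RCA arrays. That bound leaves out the spread between arrays, and KO LCA replicate 2 lay below its own guide. KO LCA minus WT LCA was 0.17 ± 0.08 (adjusted p = 0.819), with WT LCA at background, and 0.09 without KO LCA replicate 1. KO RCA minus WT RCA was -0.07 ± 0.08, and WT LCA minus WT RCA was -0.03 ± 0.08.

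Nqo1, which reduces quinones without releasing superoxide, read 105, 97.1 and 87.9 in KO LCA, 97.9, 88.2 and 107 in WT LCA, 91.0, 89.0 and 90.9 in KO RCA, and 104, 97.6 and 93.7 in WT RCA. The KO RCA arrays lay below the WT RCA arrays without overlap, by -0.12 ± 0.08 (adjusted p = 1.00), but no KO RCA array was above the guide. In the ligated artery the genotype difference was -0.02 ± 0.08 (adjusted p = 0.979). The second Nqo1 probe was above the guide on 0 arrays.

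Nox4, the peroxide-producing oxidase, read 99.8, 107 and 115 in KO LCA, 95.7, 85.3 and 96.9 in WT LCA, 98.2, 107 and 104 in KO RCA, and 95.7, 98.8 and 91.4 in WT RCA. The KO LCA arrays lay above the WT LCA arrays, all of which were at background. The log2 difference was 0.21 ± 0.07 (95% interval 0.06 to 0.36), it did not pass in limma (adjusted p = 0.697), and no lower bound above 1 could be set for its fold. KO RCA minus WT RCA was 0.12 ± 0.07 (adjusted p = 1.00). Ligated minus untouched, the difference was 0.05 ± 0.07 in KO and -0.04 ± 0.07 in WT. KO LCA averaged 107 ± 7.54 and WT LCA 92.7 ± 6.37, while KO RCA averaged 103 ± 4.57 and WT RCA 95.3 ± 3.71, so both KO groups had higher means than both WT groups, with overlap between KO RCA and WT RCA.

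**Figure D2:**
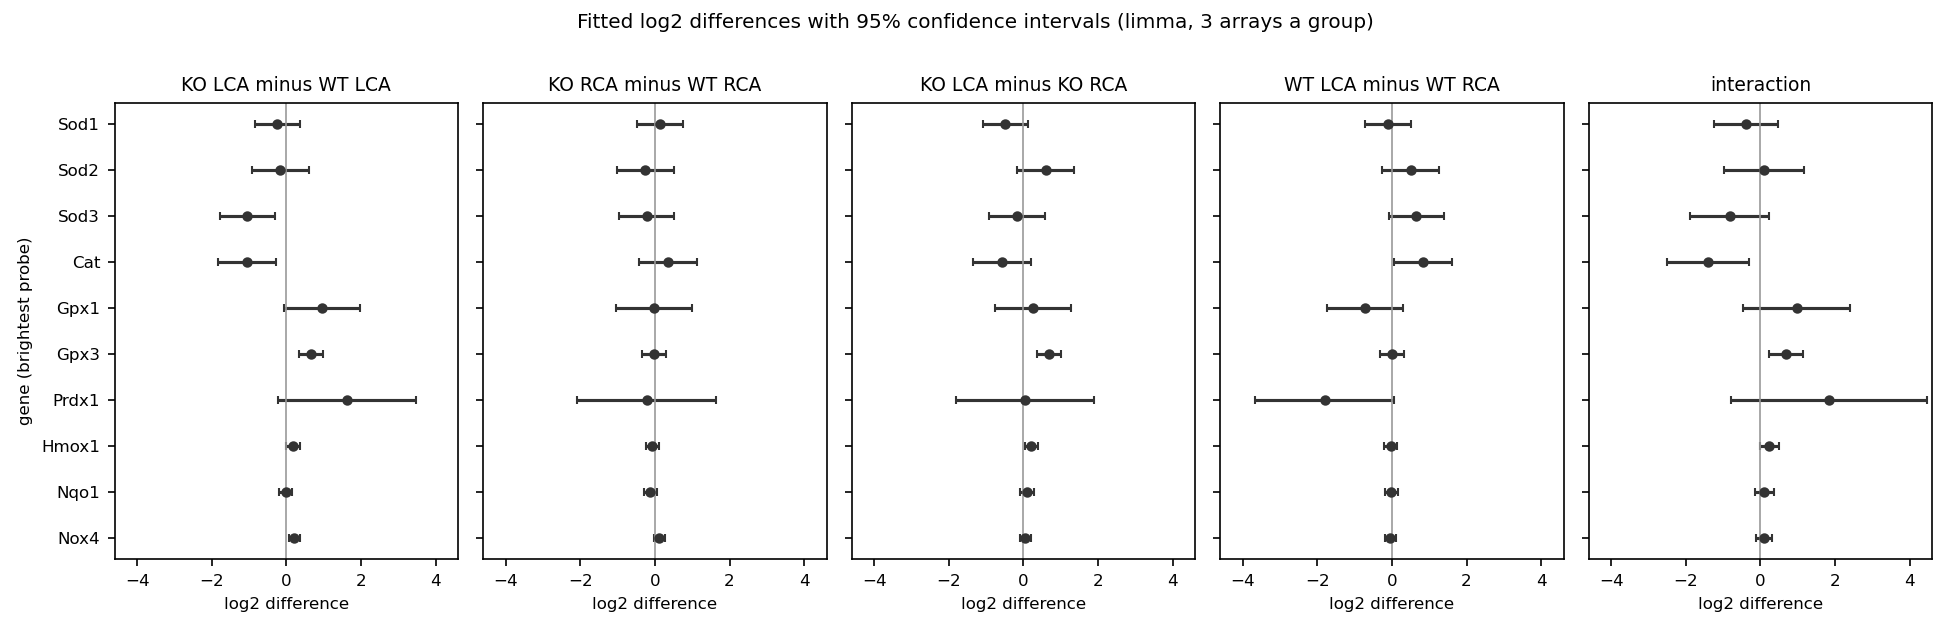
Log2 differences of the brightest probe of each of the 10 genes in the 4 comparisons and the interaction, with points for the estimates of the limma fit and bars for their 95% intervals. The intervals of Sod3 (-1.79 to -0.30), Cat (-1.83 to -0.27), Gpx3 (0.35 to 0.99) and Nox4 (0.06 to 0.36) leave out 0 in KO LCA minus WT LCA, and none of these passed the adjusted threshold.

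Set against the whole array, the genotype comparison in the ligated artery had the most members at the unadjusted threshold. Over all 45281 probes limma called 0.00221% at an adjusted p under 0.05 for KO LCA minus WT LCA, which is the single gene Schip1, and 0 of 15 member probes. At an unadjusted p under 0.05 there were 4 of 10 genes by their brightest probe, Gpx3 and Nox4 with higher and Sod3 and Cat with lower values in KO LCA, where 7.02% of 19057 genes met that rule. Groups did not overlap for 5 of 10 (Gpx3, Prdx1 and Nox4 above, Sod3 and Cat below), against 13.2% of all genes. The median log2 difference of the 10 was 0.08, with 5 above 0 and 5 below, and that of all genes was -0.01, with 45.2% above 0.

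The other comparisons held fewer, with 0 to 2 of the 10 genes at the unadjusted threshold. For KO RCA minus WT RCA limma called 0.0% of probes, with 1863 at an unadjusted p under 0.05. Of the 10 genes, 0 met the unadjusted rule, which 4.72% of genes did, and 1 (Nqo1) did not overlap between groups, against 11.5%. The median of the 10 was -0.05, and that of all genes 0.00. For KO LCA minus KO RCA limma called 0.0% of probes, with 4109 at an unadjusted p under 0.05. Of the 10 genes, 2 (Gpx3 and Hmox1, both with higher values in LCA) met the unadjusted rule, against 8.73% of genes, and 2 (Sod2 and Gpx3) did not overlap, against 20.6%. The median of the 10 was 0.07, with 7 above 0, and that of all genes -0.01, with 46.7% above 0.

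For WT LCA minus WT RCA limma called 0.0% of probes, with 2941 at an unadjusted p under 0.05. Cat alone of the 10 met the unadjusted rule, against 7.09% of genes, and Cat alone did not overlap, against 10.8%. The median of the 10 was -0.02, with 3 above 0, and that of all genes 0.00, with 50.3% above 0. For the interaction limma called 0.0% of probes, with 1753 at an unadjusted p under 0.05, and 2 of 10 genes (Cat negative, Gpx3 positive) met the unadjusted rule, against 4.17%. These comparisons share arrays: KO LCA, for instance, enters the genotype comparison, the KO ligation comparison and the interaction, so Gpx3's high KO LCA values count in all of them.

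**Figure D3:**
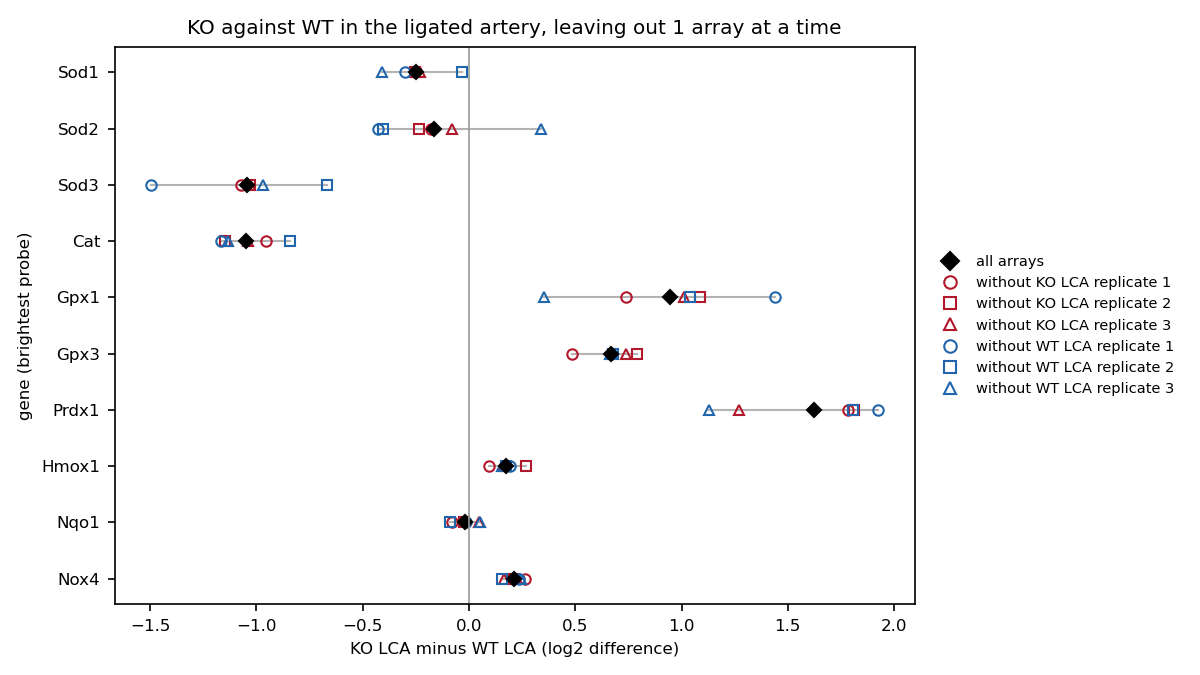
Log2 differences of KO LCA minus WT LCA for the brightest probe of each gene in the full fit and with each array of these groups left out in turn. Sod3 runs from -1.50 to -0.67, Cat from -1.17 to -0.84 and Gpx3 from 0.48 to 0.79, while Sod2 is 0.34 without WT LCA replicate 3 and -0.16 in the full fit.

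Genes that work with the set were taken as 6 lists, and limma called 0 genes in any of them at an adjusted p under 0.05 in any comparison, so they are described at the unadjusted threshold. All list values and counts include WT LCA replicate 3 and are not given without it. Gpx8, Glrx, Taldo1 and Mafg were below the guide on that array. The glutathione, thioredoxin and peroxiredoxin list had 21 of 24 genes measured, 14 of them above the guide on at least 6 arrays. In KO LCA minus WT LCA, 3 of the 21 were higher and 0 lower at an unadjusted p under 0.05, against 4.54% and 2.48% of all genes. Of the 21, 14 had differences above 0, against 45.2% of all genes, with a list median of 0.07. Gpx8, a peroxidase of the endoplasmic reticulum, read 213, 142 and 132 in KO LCA and 119, 103 and 92.8 in WT LCA, a difference of 0.60 ± 0.17 (adjusted p = 0.605), with 0.16 to 0.55 on its other 2 probes. In the untouched artery it read 92.5, 105 and 110.0 in KO and 107, 108 and 93.5 in WT, so its KO LCA arrays, like those of Gpx3, were above all others. Glrx, a glutaredoxin that frees proteins of bound glutathione, read 195, 265 and 218 in KO LCA and 125, 126 and 94.9 in WT LCA, a difference of 0.97 ± 0.32 (adjusted p = 0.707). Its second probe gave 0.93.

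The same list had 1 of 21 genes at that threshold in each of the other comparisons, which is near the shares of all genes there (1.91% to 5.43% in a direction). In KO RCA minus WT RCA it was the thioredoxin reductase Txnrd1 (1.00 ± 0.37, adjusted p = 1.00), with 170.1, 473 and 224 in KO RCA and 129.8, 129 and 134 in WT RCA. In KO LCA minus KO RCA it was Gpx8 (0.63 ± 0.17, adjusted p = 0.479), with 0.24 to 0.34 on its other probes. In WT LCA minus WT RCA it was thioredoxin itself, Txn1, with a lower value (-0.69 ± 0.30, adjusted p = 0.714), while its other 2 probes lay between -0.03 and 0.01. The interaction gave Gpx8 alone (0.61 ± 0.24, adjusted p = 0.924), with 0.10 to 0.41 on the other probes.

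The list of NRF2 regulators and targets had 27 of 28 genes measured, 19 above the guide on at least 6 arrays. In KO LCA minus WT LCA, 4 were higher and 1 lower at the unadjusted threshold, against 4.54% and 2.48% of all genes. Of the 27 differences 18 were above 0, against 45.2% of all genes, and the median was 0.11. Taldo1, an enzyme of the pentose phosphate pathway, had 179, 184 and 197 in KO LCA and 137, 139 and 95.4 in WT LCA, a difference of 0.61 ± 0.14 (adjusted p = 0.375). KO RCA had 148, 169.8 and 186 for Taldo1, and WT RCA 149, 147 and 139. Mafg, a small Maf partner of NRF2, differed by 0.46 ± 0.15 between KO LCA and WT LCA (adjusted p = 0.714), and by 0.24 on its other probe. Ligated minus untouched, the stress gene Osgin1 differed by -0.15 ± 0.06 in KO and by -0.16 ± 0.06 in WT, and neither passed (adjusted p = 0.507 and 0.714).

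Elsewhere the NRF2 list gave 1 gene higher in KO RCA minus WT RCA, Txnrd1 again, against 2.81% of all genes. Next in p came Nfe2l1, a relative of NRF2 (1.02 ± 0.51, adjusted p = 1.00). KO LCA minus KO RCA gave 2 of 27 genes higher and 1 lower, near the shares of all genes (3.30% and 5.43%), among them the ferritin heavy chain Fth1 (0.52 ± 0.20, adjusted p = 0.515), which stores iron and whose second probe gave 0.40. WT LCA minus WT RCA gave 0 higher and 1 lower (all genes 2.73% and 4.36%), with the epoxide hydrolase Ephx1 next to it at -0.41 ± 0.18 (adjusted p = 0.714). In the interaction 0 of the 27 genes met the unadjusted threshold, against 4.17% of all genes, and Taldo1 had the smallest p (0.40 ± 0.19, adjusted p = 0.924).

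The NADPH oxidase list, to which Nox4 belongs by function, had 13 of 14 genes measured but only 3 above the guide on at least 6 arrays. At the unadjusted threshold 0 of 13 differed between genotypes in LCA or RCA, or in KO LCA minus KO RCA or the interaction. In these comparisons 4.17% to 8.73% of all genes met that rule. In WT LCA minus WT RCA, 2 were lower. These were Nox1 (-0.10 ± 0.04) and its organiser Noxo1 (-0.18 ± 0.08), against 4.36% of all genes lower. Their other probes gave 0.02 and 0.01, of the opposite sign, and Nox1 was above the guide on 0 arrays. Cybb, the phagocyte catalytic subunit, had 87.1, 91.4 and 97.3 in KO LCA and 319, 94.8 and 99.2 in WT LCA. The value of 319 was on WT LCA replicate 1, the array with the highest summed neutrophil marker signal (1614), whose part in it was not tested. The difference was -0.65 ± 0.37 (adjusted p = 0.819), and -0.07 on the other Cybb probe. Cyba, the subunit p22phox that Nox4 needs, had 128, 134 and 132 in KO RCA and 133, 139 and 1604 in WT RCA, a difference of -1.24 ± 0.80 (adjusted p = 1.00) with 1 array, WT RCA replicate 3, far above the rest.

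Copper delivery, which Sod1 and Sod3 require, was read from 7 genes, 5 of them above the guide on at least 6 arrays. At the unadjusted threshold 0 of 7 were higher or lower in any of the 5 comparisons, where 4.17% to 8.73% of all genes were. Atp7a, the pump that loads copper into Sod3, read 111, 100.5 and 99.9 in KO LCA and 103, 107 and 222 in WT LCA, a difference of -0.38 ± 0.24 (adjusted p = 0.819), with the high value on WT LCA replicate 3. Atox1, which carries copper to Atp7a, read 254, 167 and 264 in KO LCA and 206, 427 and 1459 in KO RCA, a difference of -1.17 ± 0.64 (adjusted p = 0.614). Commd1, another copper-handling protein, differed by -0.32 ± 0.16 between KO LCA and WT LCA (adjusted p = 0.819), and by 0.04 on its other probe.

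Haem and iron handling around Hmox1 was read from 12 genes, 7 above the guide on at least 6 arrays. In KO LCA minus WT LCA, 2 were higher and 2 lower at the unadjusted threshold, against 4.54% and 2.48% of all genes. Cd163, the macrophage receptor that takes up haemoglobin bound to haptoglobin, read 139, 141 and 165 in KO LCA and 97.5, 86.6 and 81.7 in WT LCA, a difference of 0.74 ± 0.11 (adjusted p = 0.0793 in limma). KO RCA had 79.7, 94.8 and 91.0 for Cd163 and WT RCA 97.2, 103 and 83.4, so its KO LCA arrays were above all others too. The second Cd163 probe gave 0.05. The first was above the guide on 4 arrays and at background in WT LCA and KO RCA, so its differences are not read as folds. Haptoglobin itself, Hp, had 185, 114 and 106 in KO LCA and 98.2, 94.6 and 86.9 in WT LCA (0.49 ± 0.17, adjusted p = 0.749), with 0.15 to 0.39 on its other probes. Hp too was at background in WT LCA. Against KO RCA, Cd163 differed by 0.74 ± 0.11 (adjusted p = 0.479), and its interaction was 0.83 ± 0.15 (adjusted p = 0.924).

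Among 6 measured genes for other sources of superoxide or peroxide, the endothelial nitric oxide synthase Nos3, which makes superoxide when uncoupled, had the smallest p in both ligation comparisons. It read 99.9, 91.1 and 122 in KO LCA and 244, 161 and 120.3 in KO RCA, a difference of -0.70 ± 0.22 (adjusted p = 0.483), with -0.73 to -0.58 on its other 3 probes. In WT it read 114, 108 and 84.5 in LCA and 175, 181 and 177 in RCA, a difference of -0.81 ± 0.22 (adjusted p = 0.714), with -0.69 to -0.47 on the other probes. The WT arrays did not overlap, and in KO the highest LCA array exceeded the lowest RCA array. Endothelial markers, given below as means of log2 intensity, were likewise lower in the ligated artery of each genotype, and their part in the Nos3 values was not tested. At the unadjusted threshold 0 of these 6 genes differed between genotypes in LCA or RCA, against 7.02% and 4.72% of all genes.

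Marker sums of other cell types are given for the same groups. Summed smooth muscle marker intensity over 10 genes ran from 2857 to 4078 in KO LCA, 1007 to 1609 in WT LCA, 1661 to 2662 in KO RCA and 1117 to 1415 in WT RCA. Both KO groups were above both WT groups, as were the Nox4 means. Acta2, Tpm1 and Cald1 made up most of the KO LCA sums, and Smtn added 717 on KO LCA replicate 3. Acta2 read 1049, 1052 and 895 in KO LCA and 514, 257 and 89.9 in WT LCA. Myh11 overlapped between KO LCA and WT LCA, and Cnn1, Lmod1 and Des were above the guide on 1 array each. The summed adipocyte markers (9 of 10 measured) ran from 1220 to 1573 in KO LCA, 863 to 1084 in WT LCA, 858 to 1057 in KO RCA and 890 to 1085 in WT RCA, so KO LCA was highest without overlap, as it was for Gpx3. Of the 9, Fabp4, Plin4 and Pck1 were above the guide on at least 6 arrays, and Plin1, Lep and Retn on 0. Pck1 had 337, 212 and 194 in KO LCA, 94.4, 90.9 and 89.6 in WT LCA, 178, 104 and 90.5 in KO RCA, and 91.9, 98.6 and 106 in WT RCA. Adipoq and Cidec were above the guide on 2 arrays each and Lpl on 3. Adipoq read 113, 91.6 and 97.2 in KO LCA. The part of these cell types in the antioxidant values was not tested.

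Between KO LCA and WT LCA, the sums of endothelial, macrophage, neutrophil and red cell markers overlapped, as did their means of log2 intensity. Endothelial markers (12 of 12 measured, 10 above the guide on at least 6 arrays) summed to 3398 to 6034 in KO LCA, 3743 to 4247 in WT LCA, 3997 to 5091 in KO RCA and 4260 to 5265 in WT RCA, and WT LCA lay below WT RCA by a narrow gap. One gene, Pecam1, carried the highest KO LCA sum, with 3593 on replicate 1. As means of log2 intensity, in which no bright gene dominates, endothelial markers ran from 7.75 to 7.88 in KO LCA, 7.80 to 8.02 in WT LCA and 8.05 to 8.18 in WT RCA, and the lowest KO RCA array was at 7.94. On that scale LCA lay below RCA without overlap in both genotypes, and KO RCA lay below WT RCA. Fibroblast markers (11 of 11) summed to 1824 to 2557 in KO LCA, 1501 to 1867 in WT LCA, 1631 to 2023 in KO RCA and 2164 to 2942 in WT RCA, so the KO LCA and WT LCA sums overlapped. Their means of log2 intensity did not, with 7.32 to 7.67 in KO LCA, 6.91 to 7.22 in WT LCA, 6.96 to 7.31 in KO RCA and 7.28 to 7.40 in WT RCA. Dpt, a fibroblast matrix gene chosen here after its values were seen, had 221, 165 and 322 in KO LCA and 98.1, 127 and 92.5 in WT LCA. Not all of the list went that way. Clec3b had 227, 156 and 191 in KO LCA and 206, 371 and 651 in WT LCA, and Lum, Col3a1 and Pi16 were among those that overlapped. As a mean of log2 intensity the fibroblast list was above WT LCA in KO LCA, as Gpx3 was, and the part of fibroblasts in the antioxidant values was not tested. Macrophage markers (8 of 10, Cd163 among them) summed to 772 to 887 in KO LCA, 722 to 793 in WT LCA, 716 to 769 in KO RCA and 736 to 939 in WT RCA, with 1 of the 8, Lyve1, above the guide on at least 6 arrays. Red cell markers (4 of 6), given because red cells hold much catalase, summed to 1377 to 2847 in KO LCA, 1372 to 1988 in WT LCA, 2071 to 5387 in KO RCA and 694 to 1894 in WT RCA. The part of red cells in the Cat values was not tested. Markers of brown fat, lymphocytes, skeletal muscle and Schwann cells were near background, with 0 of each list above the guide on at least 6 arrays.

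**Figure D4:**
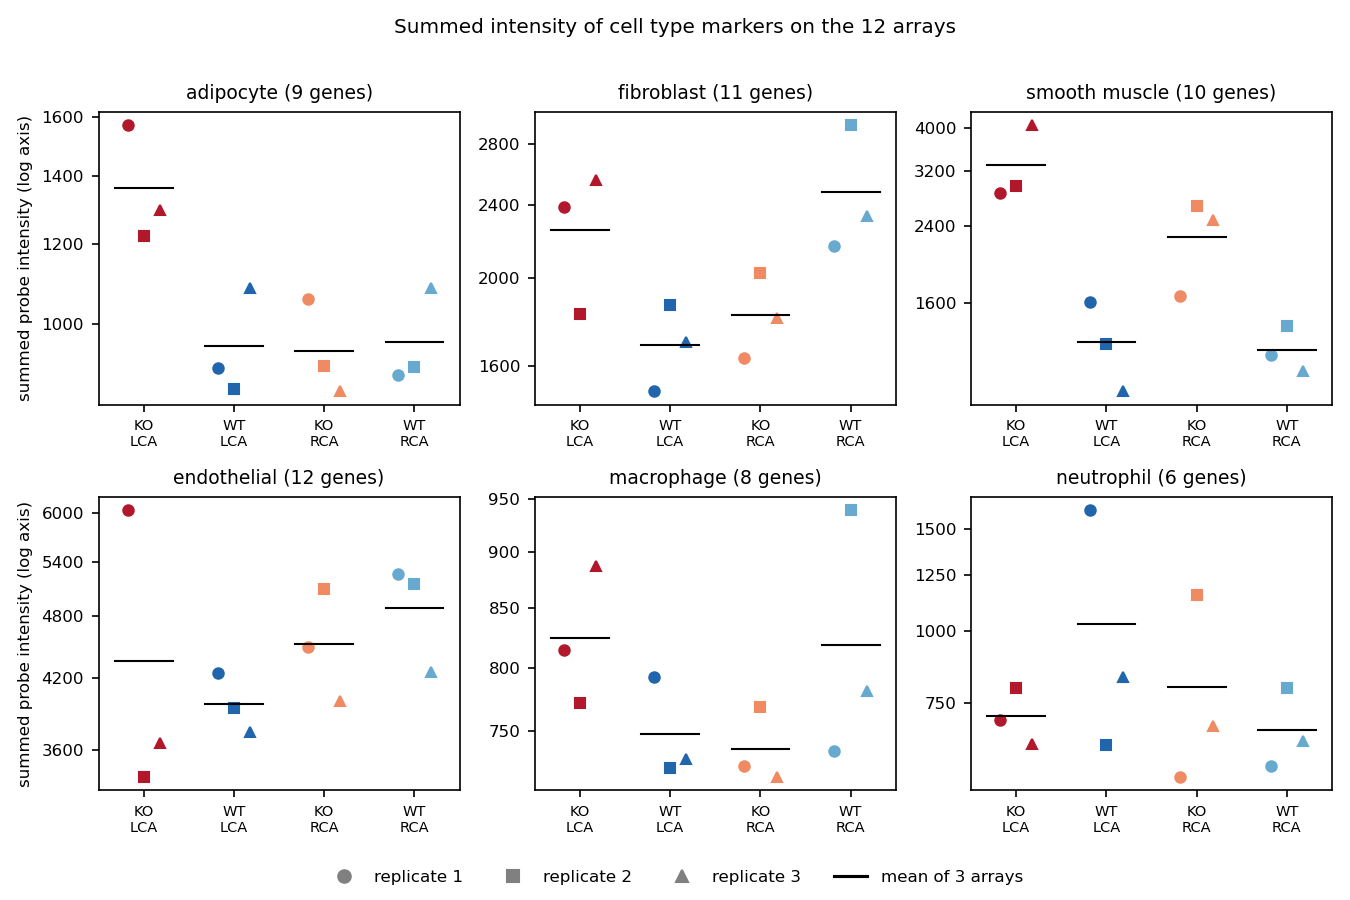
Summed marker intensity per array for the cell types an artery sample could hold, by group, on a log axis. Smooth muscle sums are higher on the 3 KO LCA arrays (2857 to 4078) than on the 3 WT LCA arrays (1007 to 1609), adipocyte sums are highest in KO LCA (1220 to 1573), and endothelial sums of KO LCA (3398 to 6034) span those of the other groups.

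Across the 12 arrays, the 7 genes above the guide on at least 6 arrays were set against each other and against all other genes that met the same condition, over 10242 probes. These correlations mix the 4 groups and share array effects, so they are descriptions only. Sod3 and Cat had the highest Pearson correlation within the set, 0.68 (Spearman 0.76, and Pearson 0.66 without WT LCA replicate 3). Sod3 and Nox4 had the lowest, -0.70 (Spearman -0.64). The correlation of -0.68 between Sod2 and Gpx1 rests on WT LCA replicate 3, without which it was 0.30.

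The genes most like Sod3 were P3h2, a collagen prolyl hydroxylase (Pearson 0.97, Spearman 0.90), the haem transporter Slc48a1 (0.93 and 0.59) and the methyltransferase Lcmt1 (0.92 and 0.34). Without the 2 arrays farthest from the Sod3 median, WT LCA replicates 2 and 3, the Pearson values were 0.72 for P3h2, 0.48 for Slc48a1 and 0.00 for Lcmt1. Most like Cat were Clk4 (0.88), Tspan5 (0.81) and Clec2i (0.81), which were 0.82, 0.45 and 0.78 without the 2 arrays farthest for Cat. For Sod2 they were Srek1 (0.97), Lrp5 (0.97) and Gm9831 (0.95), at 0.88, 0.88 and 0.70 without the 2 arrays farthest for Sod2. For Sod1 they were Add1 (0.86), Tnrc18 (0.85) and Piwil1 (0.85), at 0.58, 0.69 and 0.79 without its 2 farthest arrays. For Gpx1 they were Ccar2 (0.94), Map3k4 (0.93) and H2az1 (0.92), at 0.66, 0.90 and 0.61 without its 2. For Prdx1 they were Cand1 (0.94), Ptbp1 (0.91) and Ddx1 (0.91), at 0.86, 0.81 and 0.75, and for Nox4 Ltv1 (0.89), Odc1 (0.87) and Ifrd1 (0.86), at 0.85, 0.89 and 0.76.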

How the data were processed

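The deposited table holds linear probe intensity values for 45281 probes on 12 arrays, 1 colour each. The sorted intensity values of the deposited arrays differ by at most 0.564%, as quantile normalization leaves them. No background step, normalization tool or slide is named (not given in the sources used here), and the number of arrays limits the precision. RNA was extracted with a miREasy kit and labelled with biotin, per the labels' protocols. Probes were named through the platform annotation (34885 with 1 symbol, 18 with several, 10378 with none). The 10 genes and all lists were chosen with earlier results of these data known.

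Intensity was taken as log2 of the deposited value. All 45281 probes, unfiltered, entered 1 limma fit (limma 3.58.1, R 4.3.3) on the 4 group means with eBayes, with two-sided tests and Benjamini-Hochberg adjustment of p-values over all probes, with a threshold of 0.05. A gene not above the guide on any array of a group was called at background there. For Gpx3, Hmox1 and Nox4 a bound on the fold was sought against that guide, from means of log2 values without their spread. Other differences with a group at background are given as plain log2 estimates. The fit was tested on simulated data. Named genes are the 10 with all their probes, in each list the 2 genes with the smallest p of a comparison (some of them given only in counts), and for each of the 7 genes above the guide on at least 6 arrays the 3 others with the highest Pearson correlation. Promoters were read from RefSeq (Python 3.11.15). Alternatives were the replicate block, weights on arrays, trend and robust options of eBayes, filters, offsets, centring, quantile normalization again, 1 probe a gene, the compared groups alone and leaving out arrays.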

Additional observations from a re-analysis of the deposited data

How the results depend on the processing

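Over 1785 values of the 15 probes in the 5 comparisons under 25 alternatives, 1711 kept the sign of the full fit, 74 took the other sign and 0 passed the adjusted threshold. The sign count is no measure of stability, since many settings leave the estimate as it is by construction. These are the replicate blocks, the filters, 1 probe a gene, the compared groups alone and the trend and robust options. Leaving out an array of a group outside the comparison also leaves it unchanged. The smallest adjusted p was 0.0576, for Sod3 in KO LCA minus WT LCA without WT LCA replicate 1. The count of all probes called for KO LCA minus WT LCA was 1. It was 4 with array weights, 15 with the lowest intensity subtracted and 16 added, 12 with either filter on dim probes, and 0 with centring on probes above the guide, with trend and robust eBayes, or with only the groups compared. Leaving out 1 array at a time gave 0 to 21 for KO LCA minus WT LCA (21 without WT LCA replicate 1), 0 to 5 for KO RCA minus WT RCA, 0 to 5 for KO LCA minus KO RCA, 0 to 10 for WT LCA minus WT RCA and 0 to 4 for the interaction, against 0 in the full fit of the last 4. Array weights gave 1 for WT LCA minus WT RCA. Leaving out WT LCA replicate 3 and WT RCA replicate 3 together, chosen after seeing the data, gave 19 for KO LCA minus WT LCA, 1 for KO RCA minus WT RCA and 10 for WT LCA minus WT RCA. The cause of these changes was not tested. The replicate number as a fixed block gave 0 probes in all 5 comparisons, and as a random block, with a correlation of 0.0633, gave 1 for KO LCA minus WT LCA and 0 for the others. Same-numbered LCA and RCA arrays had deviations that correlated by -0.02 to 0.09 over all probes, so the number was not taken to pair them. Over all probes, each WT array correlated best with the opposite WT artery of its own number (0.04 to 0.09), which not all KO arrays did. Over the 2552 probes above the guide on all arrays, this did not hold for every WT array. There WT LCA replicate 1 was at 0.04 with WT RCA replicate 1 and at 0.09 with WT RCA replicate 2. No pairing is read from these values, since the labels do not say whether a number marks 1 mouse. The slide as a block was not run because slides are not given. Low signal limits Gpx3, Hmox1, Nqo1 and Nox4, which were above the guide on 6 arrays or fewer. It also limits Sod3 in KO LCA, where the values lay close to the guide.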
